A study of Rattus norvegicus with 6 samples.

Results

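The 9 genes Nfkbia, Nfkbiz, Tnfaip3, Zc3h12a, Bcl3, Relb, Nfkb2, Nfkb1 and Birc3 encode feedback inhibitors of the transcription factor NF-kB, its noncanonical subunits and proteins close to them. They were chosen by symbol, and each symbol named a single locus among the 34225 loci of the count table. All 9 were among the 16398 loci that passed the filter on low counts. Their messenger RNA was followed in 6 libraries of skin from the back of outbred rats of the Sprague-Dawley strain. Of these, 2 came from rats given gefitinib by mouth at 80 mg/kg once a day until a rash appeared, 2 from rats given afatinib by mouth at 30 mg/kg once a day until a rash appeared, and 2 from untreated rats, which the sample titles call WT. Gefitinib blocks the epidermal growth factor receptor (EGFR) reversibly, and afatinib blocks EGFR and its relatives covalently. The doses differ and the day of sampling is not stated. Each comparison with untreated skin sets drug and rash together against neither, so drug and rash cannot be told apart. The labels give no age or sex, no vehicle for the untreated rats, and nothing on whether a library is 1 animal, so the p-values measure only the spread between these libraries.

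NF-kB dimers are held in the cytoplasm by IkB proteins, and signals from cytokine and danger receptors destroy those inhibitors and free the dimers. Freed NF-kB then switches on genes that end its own signal, among them the gene of IkB alpha and that of the ubiquitin-editing enzyme A20, so the messenger RNA of such feedback genes is often read as a trace of recent NF-kB activity. A slower, noncanonical arm works through the kinase NIK, the precursor encoded by Nfkb2 and the subunit RelB. In epidermis NF-kB governs inflammation, and keratinocytes use IkB zeta and the ribonuclease Regnase-1 as positive and negative arms of their answer to interleukin-17 (IL-17).

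Library totals ran from 17206456 to 22086673 counts, and a member had between 75 and 2888 counts in a library. Skeletal muscle RNA varied: 12 muscle markers took 4.52% and 7.92% of the counts in gefitinib skin, 14.7% and 5.01% in afatinib skin, and 18.3% and 17.3% in untreated skin, and 0 of the 12 passed the test. The labelled tissue was checked by 9 keratinocyte markers, none at 0 in both libraries of untreated skin, which summed to 3139 and 3122 CPM (counts scaled to a common library size) in gefitinib skin, 2698 and 4789 CPM in afatinib skin and 1621 and 918 CPM in untreated skin. CPM were scaled by TMM, a method that sets the bulk of genes equal between libraries. Without it, with library size only, the median of all genes stood 0.66 higher on the log2 scale for both inhibitors against untreated, so each change is relative to most other genes.

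The regulatory sequence near the start of these genes is shown because kappaB sites, the DNA that NF-kB dimers bind, are known to drive several feedback genes. RefSeq promoter sequences of the GRCr8 build, 250 bases before to 50 after 1 start per gene, were at hand for 7 of the 9 members, all but Relb and Birc3. The 10-letter kappaB consensus, searched on both strands, was found in 6 of these 7 and in 1400 of 33469 promoters (4.18%). A narrower motif, GGGA then any 2 bases then TTCC, whose matches partly overlap those of the consensus, was found in 5 of the 7 members and in 1.30% of all promoters. Capitals mark the consensus matches, each run reads 5′ to 3′ on the strand of the gene, and Zc3h12a, which held no match, is shown by the 100 bases before its start.
Nfkbia, chr6:78597074-78597123, minus strand: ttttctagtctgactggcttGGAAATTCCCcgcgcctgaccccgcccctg
Nfkbiz, chr11:58251688-58251720, plus strand: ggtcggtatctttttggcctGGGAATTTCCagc
Tnfaip3, chr1:15544005-15544066, minus strand: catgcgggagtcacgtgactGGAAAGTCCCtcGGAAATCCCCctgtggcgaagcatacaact
Bcl3, chr1:88613564-88613613, minus strand: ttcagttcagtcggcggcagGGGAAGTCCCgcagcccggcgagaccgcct
Nfkb2, chr1:255108334-255108373, plus strand: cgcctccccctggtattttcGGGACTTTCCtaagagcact
Nfkb1, chr2:226805440-226805469, minus strand: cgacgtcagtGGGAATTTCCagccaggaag
Zc3h12a, chr5:142669986-142670085, minus strand: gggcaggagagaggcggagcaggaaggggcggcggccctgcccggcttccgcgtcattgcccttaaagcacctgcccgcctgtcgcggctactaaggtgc
Tnfaip3 had 3 matches, the farthest starting 170 bases before the start and not shown. The match in Nfkb1 began at base 4 after the start. A match in these letters is a description and not a shown binding site, and the absence of one covers this window only.

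Skin with either rash was set against untreated skin to ask which of the 9 genes differed. Zc3h12a, the gene of the ribonuclease Regnase-1 that degrades messenger RNAs of inflammatory cytokines, rose 4.12-fold for the mean of both inhibitors, and it was the only member past the threshold. Birc3, Nfkbiz and Bcl3 had higher means in treated skin but did not pass. Nfkbia, Tnfaip3, Relb, Nfkb2 and Nfkb1 had means close to or below those of untreated skin with gefitinib, and none of them passed with either drug.

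With gefitinib 1 of 9 members was called higher and 0 lower by the edgeR quasi-likelihood test at a Benjamini-Hochberg adjusted p under 0.05; of all loci tested 17.7% were called, 12.3% higher and 5.45% lower, so 1 of 9 (11.1%) lies near that background. With afatinib 1 of 9 was called higher and 0 lower, against 3.98% of all loci called, 3.6% higher and 0.372% lower. For the mean of both inhibitors 1 of 9 was called higher and 0 lower, against 16% of all loci called, 11% higher and 4.93% lower. The same gene was called each time, and both comparisons share the untreated libraries. At an unadjusted p under 0.05 stood 1 member with gefitinib (37.2% of all loci), 2 with afatinib (21.9%) and 2 for their mean (35.2%). DESeq2 called 1, 2 and 2 members in these comparisons and limma-voom called 1, 0 and 1. Shares of all loci called by these tools are not given, so their counts, here and below, have no background to be read against. The median log2 fold change of the 9 members was 0.083 with gefitinib and 0.27 with afatinib, beside 0.043 and 0.091 over all loci tested.

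**Figure D1:**
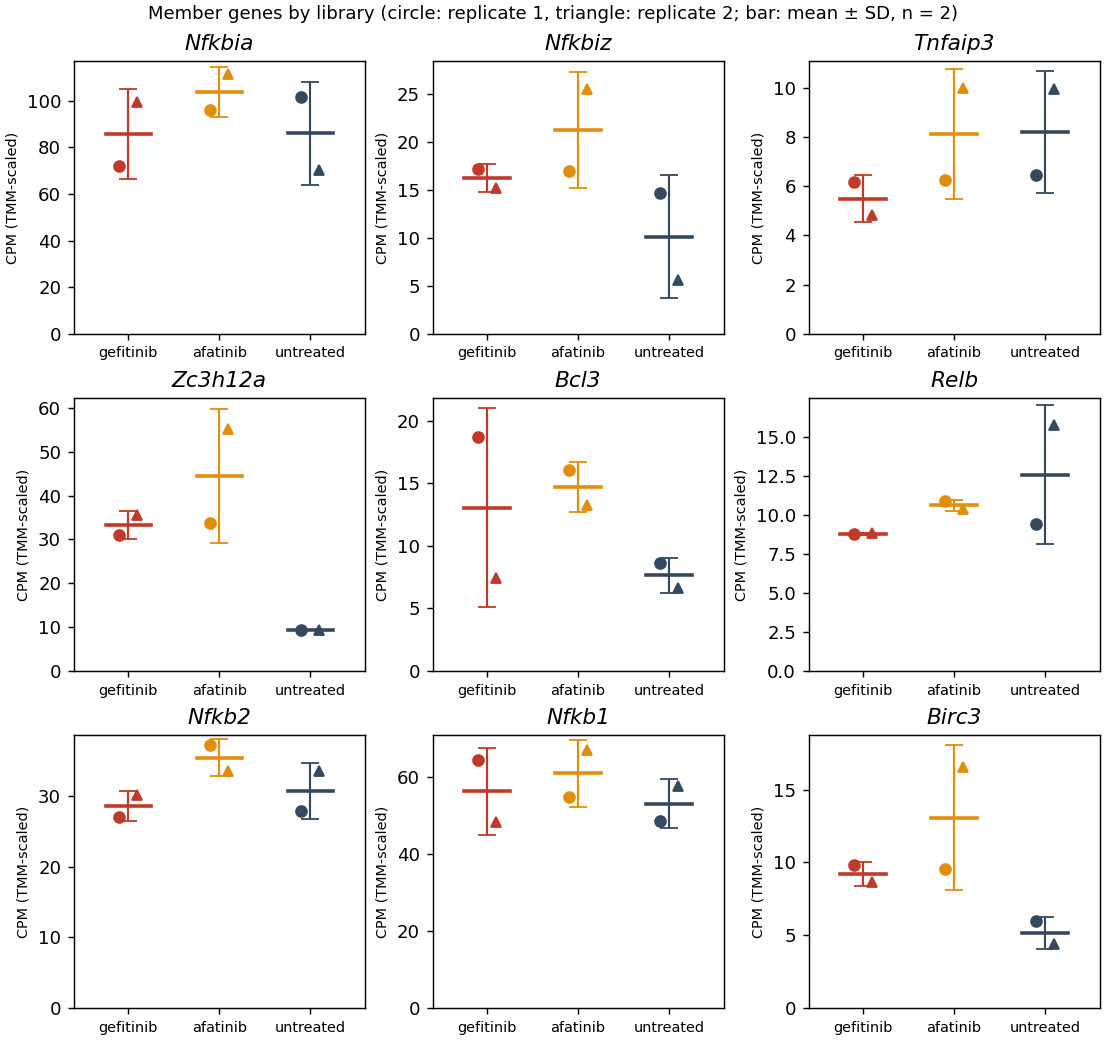
TMM-scaled CPM of each member gene (vertical axes, from 0) in the gefitinib, afatinib and untreated libraries; circles are replicate 1, triangles replicate 2, thick bars the mean and thin bars the SD of 2 libraries. The 4 treated libraries of Zc3h12a sit between 31.0 and 55.3 CPM, all above the untreated ones at 9.40 and 9.25 CPM, whereas the groups of Nfkbia and Nfkb1 overlap.

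Positions of the genes are as in the authors' files, whose build is not named and need not be GRCr8, so they are not to be set against the promoter positions. Among the feedback inhibitors, Zc3h12a (ENSRNOG00000009131, chromosome 5, 143111074 to 143120165) had 31.0 and 35.6 CPM in gefitinib skin, 33.7 and 55.3 CPM in afatinib skin and 9.40 and 9.25 CPM in untreated skin. Both untreated libraries were nearly equal, and afatinib replicate 2 was the highest of the 6. The log2 fold change was 1.83 ± 0.30 with gefitinib (SE; edgeR adjusted p = 0.0147) and 2.25 ± 0.30 with afatinib (edgeR adjusted p = 0.0273), which is 3.57-fold (95% interval 2.19 to 5.82) and 4.77-fold (2.91 to 7.83). For the mean of both inhibitors it was 2.04 ± 0.28 (edgeR adjusted p = 0.0124), which ranked place 173 by p among 16398 loci. In bulk skin a change in the number of cells of a type cannot be told apart from a change in RNA per cell. For the mean of both inhibitors 4 of 9 keratinocyte markers rose and 0 fell, and 9 of 9 hair shaft markers rose, beside 11% of all loci. Markers of mast cells (2 of 6), T and NK cells (2 of 7) and neutrophils (2 of 7) also rose. Endothelial markers (3 of 6) and Schwann cell markers (5 of 6) fell, beside 4.93% of all loci. The part of any of these cell types in the change of Zc3h12a was not tested.

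The rise of Zc3h12a was also seen without any scaling between libraries. Its counts were 12.2% (Wilson 95% interval 11.4% to 13.0%) and 13.8% (12.9% to 14.7%) of all counts of the 9 members in gefitinib skin, 12.0% (11.02% to 13.0%) and 16.1% (15.4% to 16.9%) in afatinib skin, and 4.04% (3.43% to 4.76%) and 4.35% (3.73% to 5.06%) in untreated skin. Those intervals cover counting error only. With library size only, its log2 fold change was 2.51 with gefitinib and 2.94 with afatinib, which is 1.79 and 2.23 above the median of all genes. The adjusted p was close to the threshold and moved past it when libraries were left out. With gefitinib the call was lost without gefitinib replicate 2 (adjusted p = 0.0708), untreated replicate 1 (0.100) or untreated replicate 2 (0.105) in edgeR. With afatinib it was lost in edgeR without untreated replicate 1 (adjusted p = 0.215), untreated replicate 2 (0.175), gefitinib replicate 1 (0.0520) or gefitinib replicate 2 (0.0581), and also in limma-voom (0.0669). For the mean of both inhibitors it was lost in edgeR without untreated replicate 1 (adjusted p = 0.106) or untreated replicate 2 (0.107). The afatinib call was also lost when edgeR was fitted to only the groups compared (adjusted p = 0.0635). Over every alternative run, the log2 fold change of Zc3h12a stayed between 1.65 and 2.51 with gefitinib and between 1.79 and 2.94 with afatinib.

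Nfkbia (ENSRNOG00000007390, chromosome 6, 76267228 to 76270457) encodes IkB alpha, the inhibitor that NF-kB resynthesises to switch itself off. It had 72.0 and 99.4 CPM in gefitinib skin, 96.1 and 111 CPM in afatinib skin and 102 and 70.3 CPM in untreated skin. The untreated libraries spanned nearly the whole range of the treated ones, so the groups overlapped. Its log2 fold change was −0.0045 with gefitinib (95% interval −0.71 to 0.70) and 0.27 with afatinib (−0.43 to 0.97), and the edgeR adjusted p was 0.993 and 0.627. The intervals leave room for a rise of 1.62-fold with gefitinib and 1.96-fold with afatinib.

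Tnfaip3 (ENSRNOG00000049517, chromosome 1, 14402913 to 14412807), the gene of A20, which strips ubiquitin chains from signalling complexes upstream of NF-kB, had 6.15 and 4.81 CPM in gefitinib skin, 6.24 and 9.99 CPM in afatinib skin and 6.43 and 9.95 CPM in untreated skin. Both gefitinib libraries lay below both untreated ones, and the afatinib libraries overlapped them. The log2 fold change was −0.58 ± 0.41 with gefitinib (edgeR adjusted p = 0.332) and −0.011 ± 0.41 with afatinib (adjusted p = 0.989), and with library size only its sign turned, to 0.10 and 0.66.

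Nfkbiz (ENSRNOG00000031163, chromosome 11, 47243342 to 47271487) encodes IkB zeta, a nuclear IkB protein that activates part of the genes induced by IL-17 and IL-36 in keratinocytes. It had 17.2 and 15.2 CPM in gefitinib skin, 17.03 and 25.5 CPM in afatinib skin and 14.7 and 5.59 CPM in untreated skin. All 4 treated libraries lay above both untreated ones, but gefitinib replicate 2 was close to untreated replicate 1, and the untreated libraries differed widely. The log2 fold change was 0.68 ± 0.46 with gefitinib (edgeR adjusted p = 0.31) and 1.08 ± 0.46 with afatinib (adjusted p = 0.231). For the mean of both it was 0.88, and it was 1.73 without untreated replicate 1 and 0.34 without untreated replicate 2 (edgeR adjusted p = 0.172 with all libraries).

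Bcl3 (ENSRNOG00000043416, chromosome 1, 80730499 to 80744831), another nuclear IkB protein, which binds dimers of the p50 and p52 subunits at DNA, had 18.7 and 7.44 CPM in gefitinib skin, 16.1 and 13.3 CPM in afatinib skin and 8.64 and 6.63 CPM in untreated skin. Gefitinib replicate 2 stood among the untreated libraries, while both afatinib libraries were above them. The log2 fold change was 0.78 ± 0.46 with gefitinib (edgeR adjusted p = 0.252) and 0.94 ± 0.46 with afatinib (adjusted p = 0.28). Without gefitinib replicate 1 the value for gefitinib was −0.090.

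Of the subunit genes, Relb (ENSRNOG00000033235, chromosome 1, 80517411 to 80544825), which encodes the activating partner in noncanonical dimers, had 8.74 and 8.80 CPM in gefitinib skin, 10.9 and 10.3 CPM in afatinib skin and 9.40 and 15.7 CPM in untreated skin. Both gefitinib libraries were below both untreated ones, and the afatinib libraries lay between them. Its log2 fold change was −0.52 ± 0.34 with gefitinib (edgeR adjusted p = 0.298) and −0.25 ± 0.34 with afatinib (adjusted p = 0.699), and with library size only the sign turned, to 0.15 and 0.35. Without untreated replicate 2, the high library, it was −0.097 with gefitinib and 0.17 with afatinib.

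Nfkb2 (ENSRNOG00000019311, chromosome 1, 266053002 to 266059256), the gene of the p100 precursor that is processed to p52, had 27.1 and 30.1 CPM in gefitinib skin, 37.3 and 33.6 CPM in afatinib skin and 27.9 and 33.5 CPM in untreated skin. The 3 groups covered a narrow range, and afatinib replicate 2 stood just above the higher untreated library. The log2 fold change was −0.10 ± 0.23 with gefitinib (edgeR adjusted p = 0.76) and 0.21 ± 0.23 with afatinib (adjusted p = 0.629).

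Nfkb1 (ENSRNOG00000023258, chromosome 2, 240773456 to 240866689), the gene of the p105 precursor of the canonical subunit p50, had 64.3 and 48.1 CPM in gefitinib skin, 54.8 and 67.0 CPM in afatinib skin and 48.6 and 57.5 CPM in untreated skin. The groups overlapped, and the log2 fold change was 0.083 ± 0.26 with gefitinib (edgeR adjusted p = 0.834) and 0.20 ± 0.26 with afatinib (adjusted p = 0.683).

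Birc3 (ENSRNOG00000005731, chromosome 8, 6048969 to 6076598) encodes the ubiquitin ligase cIAP2, which helps canonical signalling at the TNF receptor and, with its relative cIAP1, keeps the noncanonical kinase NIK low. It had 9.80 and 8.62 CPM in gefitinib skin, 9.55 and 16.6 CPM in afatinib skin and 5.95 and 4.36 CPM in untreated skin. All 4 treated libraries lay above both untreated ones, and afatinib replicate 2 was the highest. The log2 fold change was 0.84 ± 0.39 with gefitinib (edgeR adjusted p = 0.158), 1.35 ± 0.39 with afatinib (adjusted p = 0.1) and 1.09 ± 0.35 for the mean of both (adjusted p = 0.0724). Birc3 passed for the mean of both with DESeq2 (adjusted p = 0.0311), with library size only (0.0417), without the filter on low counts (0.0362) and without afatinib replicate 1 (0.0179), over a range of 0.0179 to 0.349 in the 12 alternatives. Birc2, its paralog, outside the rule for named genes and given only for shared reads, stood at a log2 fold change of −0.36 (edgeR adjusted p = 0.235). How the authors' counting treated reads that both genes share is not stated.

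**Figure D2:**
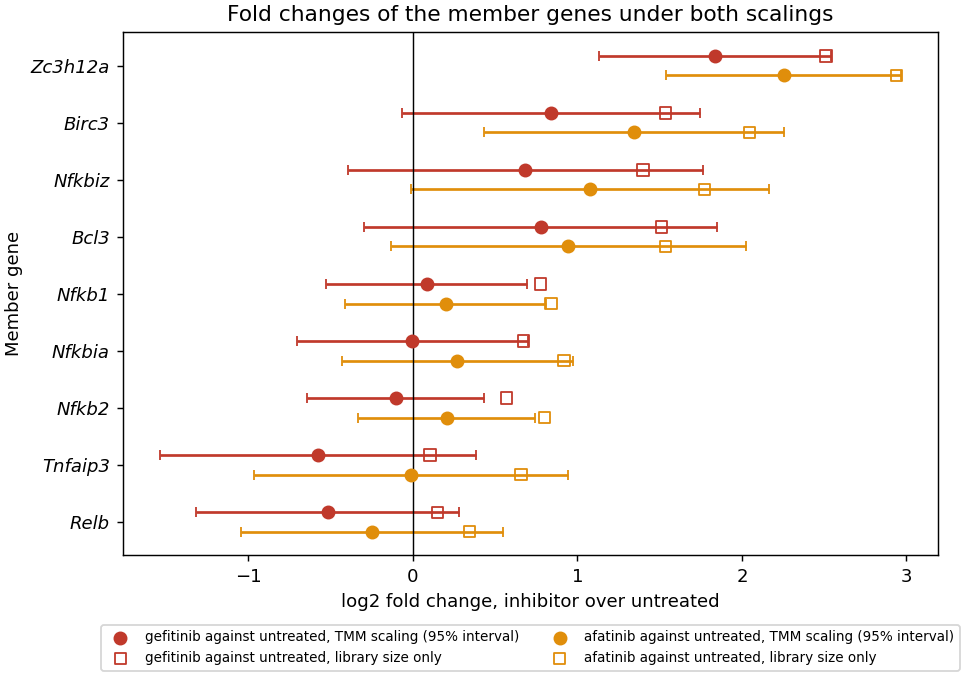
Log2 fold change of each member gene (horizontal axis), gefitinib and afatinib each against untreated; filled circles with 95% intervals are the TMM-scaled edgeR values and open squares the values with library size only. With TMM the intervals of Zc3h12a lie above 0 for both drugs, the interval of Birc3 does so for afatinib, and with library size only every member lies above 0.

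The members did not vary as 1 block. The libraries of Zc3h12a, Nfkbiz and Birc3 did not overlap between the 4 treated and both untreated libraries, 3 of 9 members higher and 0 lower, whereas 27.2% of all loci were higher and 18.8% lower in that way. With gefitinib alone 3 members were higher without overlap (38.8% of all loci) and 2, Relb and Tnfaip3, were lower (33.9% of all loci). With afatinib alone 5 were higher (31.5% of all loci) and 0 lower (21.8%). Read against those shares, none of these counts sets the members apart. By root mean square difference of centred log2 CPM over the 6 libraries, Nfkb2 and Nfkb1 were nearest to each other (0.225), Relb was nearest to Nfkb2 (0.233), Tnfaip3 to Relb (0.263), and Nfkbiz and Birc3 to each other (0.281). Zc3h12a and Bcl3 were each farther from any other member, with Birc3 the nearest to both, at 0.476 from Zc3h12a and 0.471 from Bcl3. Among 13878 other named loci of at least 1 CPM, the profile nearest to the mean of the 9 members was that of RGD1565622 (0.0634), followed by B3gnt7 (0.08), Mxd1 (0.0841), Rab8b (0.0961) and Lepr (0.0989). That mean profile was 0.093 and −0.088 in the gefitinib libraries, 0.18 and 0.49 in the afatinib libraries and −0.29 and −0.39 in the untreated libraries, on the centred log2 CPM scale.

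Levels between genes were compared per length, in the FPKM values that the authors deposited. Nfkbia was the most abundant member in each group, at 54.1 ± 13.1 FPKM in gefitinib skin, 63.7 ± 5.2 FPKM in afatinib skin and 55.6 ± 14.1 FPKM in untreated skin (mean ± SD, n = 2 each), without overlap with the next. Nfkb1 came next in each group, at 14.3 ± 2.68 FPKM in gefitinib skin, 15.1 ± 1.81 FPKM in afatinib skin and 13.9 ± 1.69 FPKM in untreated skin. In the order of levels Zc3h12a held place 3 in gefitinib and afatinib skin, at 11.5 ± 1.3 and 15.0 ± 4.82 FPKM, and place 7 in untreated skin, at 3.32 ± 0.027 FPKM. In gefitinib and afatinib skin its libraries overlapped those of Nfkb1 above it, and in afatinib skin also those of Nfkb2 below it. In untreated skin Bcl3, Tnfaip3, Zc3h12a, Nfkbiz and Birc3 followed each other at 4.10, 3.39, 3.32, 2.52 and 2.30 FPKM, and neighbours in that order overlapped. Tnfaip3 was lowest in gefitinib skin, at 2.21 ± 0.348 FPKM, and in afatinib skin, at 3.18 ± 0.971 FPKM, and Birc3 was lowest in untreated skin.

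**Figure D3:**
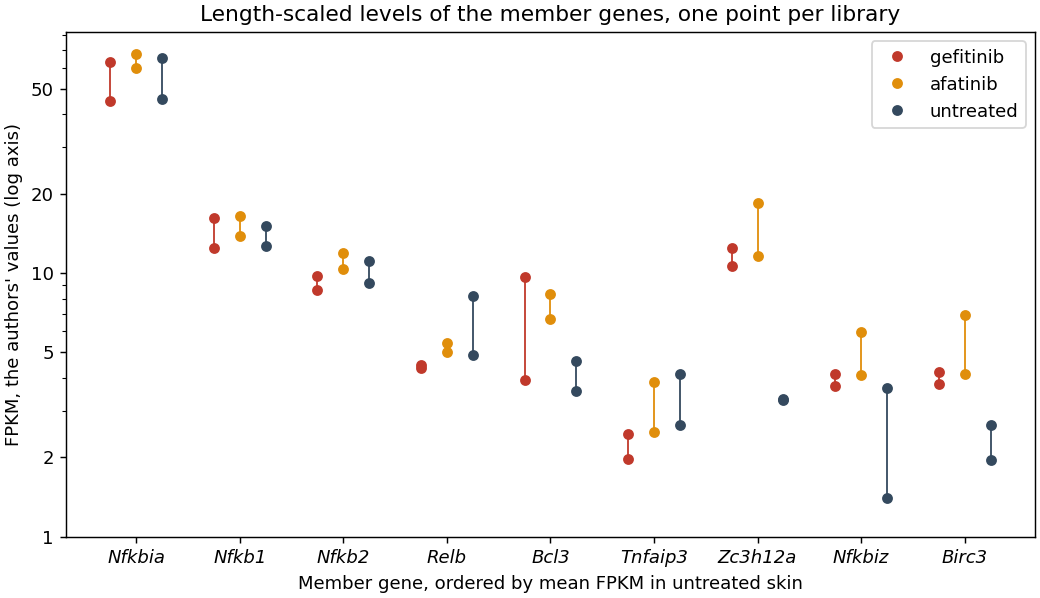
The authors' FPKM of each member gene (log axis) with 1 point per library, joined by a line within a group and ordered by the mean in untreated skin. Nfkbia lies above all other members in every library, and Zc3h12a moves to the third place in both treated groups.

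Afatinib was also set against gefitinib, at doses of 30 and 80 mg/kg a day. All 9 members had a positive log2 fold change, from 0.12 for Nfkb1 to 0.57 for Tnfaip3, with a median of 0.31 beside 0.038 over all loci tested. By edgeR 0 of 9 passed, 0 had an unadjusted p under 0.05 (5.77% of all loci), DESeq2 and limma-voom also called 0, and 0% of all loci were called by edgeR. In 3 members, Nfkb2, Relb and Tnfaip3, both afatinib libraries lay above both gefitinib ones, as in 17.1% of all loci, and 0 members showed the opposite, against 19.9% of all loci. The value of Zc3h12a was 0.42 (95% interval −0.26 to 1.09) and that of Birc3 0.51 (−0.38 to 1.39). The intervals do not show that the drugs act alike: a level 2.13-fold higher with afatinib would be within that of Zc3h12a. Without gefitinib replicate 2 the value of Bcl3 turned to −0.36 and that of Nfkb1 to −0.092. Without afatinib replicate 2 the values dropped to 0.026 for Zc3h12a, 0.064 for Birc3, 0.082 for Nfkbiz and −0.024 for Nfkb1. They also dropped for Nfkbia (0.17) and Tnfaip3 (0.20), whereas those of Nfkb2 (0.39), Relb (0.32) and Bcl3 (0.32) rose.

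The other genes of the pathway were grouped in 9 lists by role. Of 125 genes 124 were in the table and 108 were tested, and for the mean of both inhibitors 18 rose and 4 fell (20.4%, against 16% of all loci). With gefitinib 17 rose and 5 fell (20.4%, against 17.7%), and with afatinib 13 rose and 1 fell (13.0%, against 3.98%). The lists were chosen with earlier results of these data known. Some of their genes passed the filter on low counts only through treated libraries. These shares are therefore no test of the pathway as a whole. Beside each list count below stand the shares of all loci for the mean of both, 11% called higher and 4.93% lower. Of the 22 calls, 16 were among 5 tested canonical ligands, 20 inflammatory targets, 8 IkB zeta targets and 5 noncanonical chemokines. Of those 16, 1 fell. The other 6 of the 22 calls were among 13 tested receptors, 28 adaptors and ubiquitin enzymes, 14 IkB proteins, subunits and kinases, and 9 messenger RNA decay genes. The 6 tested noncanonical ligands and receptors had 0 calls. The 22 calls were made by edgeR with all libraries, and few or none remained without either untreated library. Such a fit leaves 1 library in a group. The share of all loci called in such fits is not given, here or below. The loss is therefore not shown to be particular to the pathway genes.

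Of 11 ligands that start the canonical pathway, 5 were tested and 3 rose for the mean of both inhibitors, 2 of them, Il1b and Il36g, also with each drug alone. Tnf, Il17a, Il17c, Il17f, Il36a and Il36b had too few counts for a test. Il1b, the secreted cytokine interleukin-1 beta, had 7.41 and 15.9 CPM in gefitinib skin, 24.0 and 53.2 CPM in afatinib skin and 0.899 and 0.64 CPM in untreated skin, with a log2 fold change of 4.78 ± 0.59 for the mean of both (edgeR adjusted p = 0.0108). Il36g, an alarm cytokine of keratinocytes, rose by 4.46 ± 0.49 (adjusted p = 0.0108 in edgeR). Il1a had 6 to 22 counts in the treated libraries and 0 in untreated skin, at least 3.07-fold higher against a floor of 3 counts per library (edgeR adjusted p = 0.0348). Il33 stood at −0.95 and Il18 at 1.18 (chosen after its values were seen), and neither passed. The list median was 4.46 (1.62 with Il1a at its bound), beside 0.061 over all loci. Genes nearly absent from untreated skin, such as Il1a and Il36g, passed the filter on low counts only through treated libraries. So did Nfkbid, Mmp9, Csf3, Cxcl1 and Ccl19, given below. A gene of that kind could be tested only if it was higher there. The list medians and counts here and below are therefore partly set by the filter, and the direction of a call of such a gene was fixed by it.

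Of 13 receptors of the canonical pathway 1 rose and 1 fell, with a median of −0.0083. Il1rl2, the receptor of IL-36, rose by a log2 fold change of 2.31 ± 0.45, and Tlr4, the lipopolysaccharide receptor, fell by 1.52 (edgeR adjusted p = 0.02 and 0.0435). With library size only, Tlr4 stood at −0.87 (edgeR adjusted p = 0.209). Tlr4 passed with gefitinib (edgeR adjusted p = 0.0362) and not with afatinib (0.257), whereas Il1rl2 passed with each drug (0.0283 and 0.0413). The IL-17 receptor genes Il17rc and Il17ra stood at 0.79 and 0.70 and did not pass (edgeR adjusted p = 0.0692 and 0.0699). With library size only both passed, at 1.48 and 1.37 (edgeR adjusted p = 0.0367 and 0.0366), a scaling that moved all genes up by a median of 0.66.

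Of 14 genes of IkB proteins, NF-kB subunits and IKK kinases 1 rose and 1 fell, 2 of 14 against 16% of all loci, with a median of −0.037. Nfkbid, the gene of the nuclear IkB protein IkBNS, had 0.941 and 2.45 CPM in gefitinib skin, 1.88 and 3.86 CPM in afatinib skin and 0.415 and 0.175 CPM in untreated skin, a log2 fold change of 2.91 ± 0.76 (edgeR adjusted p = 0.0432). Map3k14, the gene of the noncanonical kinase NIK, had 8.47 and 8.71 CPM in gefitinib skin, 13.3 and 11.5 CPM in afatinib skin and 16.7 and 26.3 CPM in untreated skin, a log2 fold change of −1.06 (edgeR adjusted p = 0.036). With library size only, the log2 fold change of Map3k14 was −0.44 (edgeR adjusted p = 0.406). Map3k14 passed with gefitinib (edgeR adjusted p = 0.032) and not with afatinib (0.192). Nfkbid passed with neither drug alone (edgeR adjusted p = 0.0699 with gefitinib and 0.0701 with afatinib). Of endothelial markers 3 of 6 and of Schwann cell markers 5 of 6 also fell, beside 4.93% of all loci. The part of these cells in the fall of Map3k14 was not tested. The IKK alpha gene Chuk (0.46) and the inhibitor gene Nfkbib (−0.52) did not pass.

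Of 28 adaptors and ubiquitin enzymes 1 rose and 0 fell in edgeR, with 6 at an unadjusted p under 0.05, 3 called by DESeq2 and 0 by limma-voom, and the median was 0.054. Bcl10, an adaptor of CARD signalling, rose by 0.83 ± 0.21 (edgeR adjusted p = 0.0415). It passed with gefitinib (edgeR adjusted p = 0.0306) and not with afatinib (0.186). The A20-binding protein genes Tnip3 (2.36) and Tnip1 (−0.55) and the deubiquitinase gene Cyld (−0.91) did not pass, though Tnip3 did with library size only (3.03, edgeR adjusted p = 0.039). Of 9 tested partners and relatives of Regnase-1 in messenger RNA decay 0 rose and 1 fell (2 called by DESeq2, 1 by limma-voom, and 2 at an unadjusted p under 0.05), with a median of −0.020. Arid5a, whose protein stabilises messenger RNAs that Regnase-1 degrades, had 17.3 and 13.9 CPM in gefitinib skin, 24.1 and 18.9 CPM in afatinib skin and 29.9 and 41.1 CPM in untreated skin, a log2 fold change of −0.96 (edgeR adjusted p = 0.0362), or −0.33 with library size only (adjusted p = 0.487). Arid5a passed with gefitinib (edgeR adjusted p = 0.0323) and not with afatinib (0.19). Rc3h1 (−1.01), the gene of Roquin-1, Upf1 (0.38) and Zc3h12d (0.55) did not pass.

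The noncanonical receptors and ligands showed no call. Of 12 genes 6 were tested and 0 passed in edgeR (2 at an unadjusted p under 0.05, 1 called by DESeq2 and 0 by limma-voom), with a median of −0.36. Tnfrsf12a stood at −1.22, its ligand gene Tnfsf12 at −0.95, Cd40 at −0.48 and the lymphotoxin receptor gene Ltbr at 0.20. Of 5 tested chemokine targets of that arm 1 rose: Ccl19, a lymphocyte attractant, had 23 to 55 counts in the treated libraries and 0 in untreated skin, at least 9.29-fold higher (edgeR adjusted p = 0.0137). Ccl19 passed the filter on low counts only through treated libraries, so it could be called only higher. Ccl21 (2.05), Cxcl13 (1.24) and Cxcl12 (−0.90) did not pass, though Ccl21 did with library size only (2.70, edgeR adjusted p = 0.0438), and the list median was 1.24. With gefitinib alone Cxcl12 was called lower, at −1.39 (edgeR adjusted p = 0.0429), and with afatinib it did not pass (0.543).

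Of 20 tested inflammatory target genes 6 rose and 1, the stress gene Gadd45b, fell by 1.04 (edgeR adjusted p = 0.0165; chosen after its values were seen), with a median of 0.78. Mmp9, a gelatinase, had 2324 counts in the 4 treated libraries together and 2 in both untreated ones, a ratio of 410 for TMM-scaled sums (95% exact interval 113 to 3388, which covers counting error only and not the spread between libraries; edgeR adjusted p = 0.00548). Ptgs2, the inducible cyclooxygenase gene, rose by 3.96 ± 0.48, the granulocyte growth factor gene Csf3 by 4.42 ± 0.66 and the neutrophil attractant gene Cxcl1 by 4.44 ± 0.73 (edgeR adjusted p = 0.0108, 0.0137 and 0.0152). Of 8 tested genes listed as IkB zeta targets in keratinocytes 5 rose and 0 fell in edgeR (7 at an unadjusted p under 0.05, 6 called by DESeq2 and 5 by limma-voom), with a median of 5.19, or 3.89 with genes at 0 at their bound. Il19, at 0 counts in untreated skin, passed the filter on low counts only through treated libraries. S100a9 and S100a8, the calprotectin subunits, rose by 10.32 ± 0.69 and 6.87 ± 0.49, Slpi, a protease inhibitor, by 3.96 ± 0.60, and Il19 was at least 17.7-fold higher. Neutrophils carry calprotectin and Mmp9 as well. Of 7 tested neutrophil markers 2 rose, beside 11% of all loci, and 0 of the 8 listed were at 0 in every library. The 8 markers summed to 22.6 and 17.9 CPM in gefitinib skin, 32.9 and 38.9 CPM in afatinib skin and 15.3 and 14.1 CPM in untreated skin. The part of neutrophils in these changes was not tested.

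**Figure D4:**
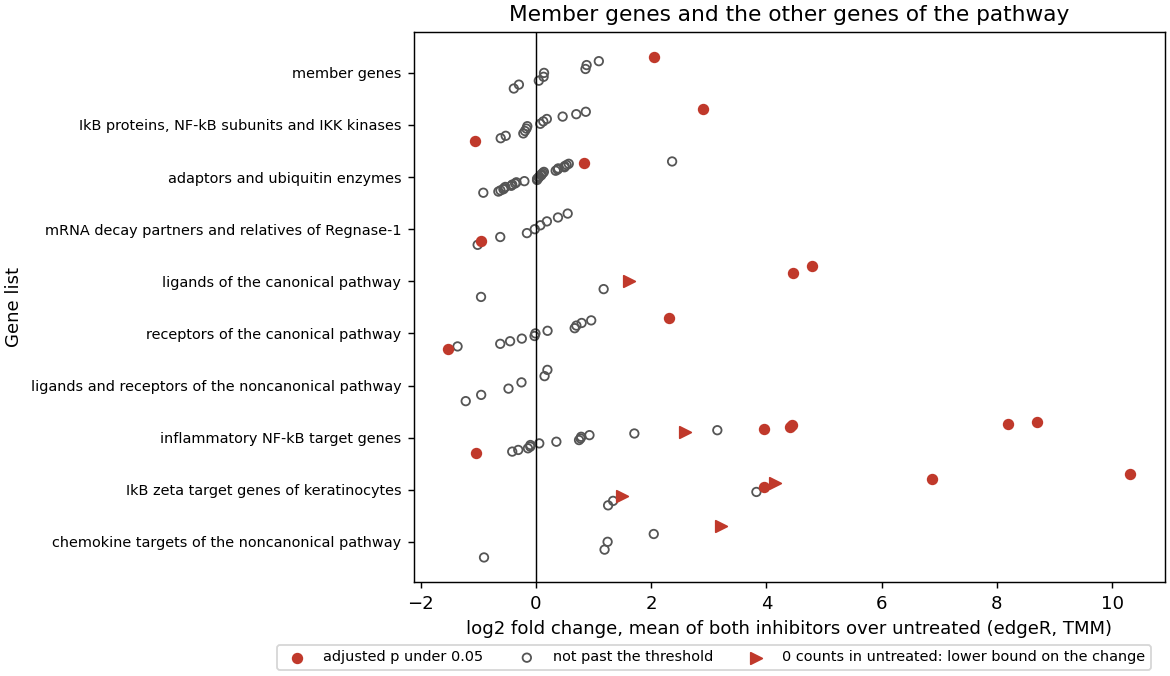
Log2 fold change for the mean of both inhibitors against untreated (horizontal axis) of the member genes and of the tested genes of the 9 pathway lists, 1 symbol per gene; filled symbols passed at an adjusted p under 0.05, and triangles are lower bounds for genes at 0 counts in untreated skin. Zc3h12a is the single filled member, while ligands and target genes reach above 4.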

How the data were processed

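For 6 libraries the authors deposited whole read counts and FPKM values per gene. The submitters' processing notes list, without their roles, the tools DESeq2 1.16.1, HISAT2 2.0.5 as well as featureCounts 1.5.0-p3, and neither build nor strand setting was found in the labels or headers. No other locus in the table overlaps a member. The deposited FPKM values divide counts by gene length and served only to compare levels between genes. Low counts were filtered with filterByExpr, libraries scaled by TMM, and group differences tested two-sided by quasi-likelihood in edgeR 4.0.16 (R 4.3.3), using all 6 libraries with 3 residual degrees of freedom and Benjamini-Hochberg adjustment over 16398 loci (threshold 0.05). The precision of a test is limited by 2 libraries a group. Alternatives used limma 3.58.1 (limma-voom), DESeq2 1.42.0, other scalings, no filter, a replicate block and each library left out. The members and gene lists were chosen with earlier results of these data known. All members are named, and of each pathway list the 4 genes of smallest p for the mean of both inhibitors; a gene outside that rule is marked. Sequences are from RefSeq. Counts of 0 were set against a floor of 3 counts per library.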

Additional observations from a re-analysis of the deposited data

How the results depend on the processing

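Zc3h12a kept its direction in every alternative run, and Birc3 was the only other member to pass under any of them. Of 459 member values under alternatives, 408 kept direction and call, 33 turned sign, 7 newly passed and 11 no longer passed. Members called numbered 1 with gefitinib, 1 with afatinib and 1 for the mean of both; without a filter on low counts 2 were called with afatinib and 2 for the mean of both, with DESeq2 2 and 2, with library size only 2 for the mean of both, and with limma-voom or with only the groups compared 0 with afatinib. Leaving out each library in turn gave 0 to 1 members with gefitinib, 0 to 2 with afatinib and 0 to 2 for the mean of both. Pathway genes called numbered 22 with gefitinib, 14 with afatinib, 22 for the mean of both and 0 for afatinib against gefitinib; without the filter these were 34, 25, 35 and 1. DESeq2 called 2 for afatinib against gefitinib, and with afatinib limma-voom called 5 and the fit of only the groups compared 7. Leaving out each library gave 0 to 29 with gefitinib, 0 to 24 with afatinib and 0 to 36 for the mean of both.

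Signs of uncalled members, and of the uncalled pathway genes Nfkbib, Tnip1 and Cd40, turned as follows, as log2 fold changes, and the cause was not tested. With library size only, the values with gefitinib were 0.67 for Nfkbia, 0.10 for Tnfaip3, 0.15 for Relb and 0.57 for Nfkb2; those with afatinib were 0.66 for Tnfaip3 and 0.35 for Relb; and those for the mean of both were 0.38 for Tnfaip3, 0.25 for Relb, 0.072 for Nfkbib, 0.087 for Tnip1 and 0.19 for Cd40. This scaling moved the median of all genes by 0.68 with gefitinib and 0.62 with afatinib. Nfkbia with gefitinib was 0.017 without the filter, Tnfaip3 with afatinib 0.015 in limma-voom, and Nfkb2 for the mean of both −0.010 with DESeq2 size factors and −0.011 in DESeq2. Over the libraries left out, values with gefitinib ran from −0.33 to 0.28 for Nfkbia, −0.090 to 1.21 for Bcl3, −0.26 to 0.036 for Nfkb2 and −0.19 to 0.21 for Nfkb1. Those with afatinib ran from −0.45 to 0.34 for Tnfaip3, −0.57 to 0.17 for Relb and −0.012 to 0.33 for Nfkb1. Those for the mean of both ran from −0.11 to 0.42 for Nfkbia, −0.58 to 0.056 for Tnfaip3, −0.71 to 0.037 for Relb, −0.078 to 0.19 for Nfkb2 and −0.044 to 0.27 for Nfkb1. Afatinib against gefitinib ran from −0.36 to 0.95 for Bcl3 and −0.092 to 0.30 for Nfkb1.

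The groups share replicate numbers, but libraries of the same number did not deviate together: the correlation of their deviations over 16398 loci was −0.17 between gefitinib and afatinib, 0.033 between gefitinib and untreated and 0.037 between afatinib and untreated. With a replicate block 1 member was called in each comparison with untreated skin, and 21, 11 and 16 pathway genes with gefitinib, with afatinib and for the mean of both. The mean of both inhibitors has no fit of only the groups compared, since it uses all 3 groups. Where 1 library of a group was left out, the lone one was assumed to vary like the others. Each member had at least 75 counts in a library, and each group only 2 libraries.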
